A study of Rattus with 6 samples.

Results

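The control state of RC-4B/C, a rat pituitary adenoma cell line, was described from its 3 control libraries of polyadenylated RNA. These were the 3 libraries labelled DMSO, the solvent dimethyl sulfoxide, of 6 libraries in all. The other 3, from cells of the same line given ASA (acetylsalicylic acid, aspirin), were not used. The labels name the line and the treatment and give no dose, time or passage, and they do not say whether the 3 control libraries came from separate cultures, so the spread between them may be technical. Replicates 1, 2 and 3 are the control libraries in their deposited order. With 1 group of 3 libraries there was no comparison to test, so levels are given with their standard deviation (SD, n = 3) and no p-value is given.

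RC-4B/C was described, when it was established, as holding gonadotropes among other hormone-making pituitary cell types. Each hormone-secreting cell type of the anterior pituitary makes its own hormone under lineage transcription factors. Lactotrophs make prolactin, depend on the POU-homeodomain factor PIT-1 (gene Pou1f1), are held back by dopamine through the D2 receptor and are driven by oestrogen. Like other peptide-secreting cells they pass the hormone through the endoplasmic reticulum (ER) and Golgi into dense-core granules, where granins such as chromogranin B and secretogranin II are packed with it, and release the granules when calcium rises.

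The deposited table gave 118147 exon bins of 12801 genes in rat build Rnor_6.0, with 94486062 reads in the listed bins of replicate 1, 82189700 in replicate 2 and 91964391 in replicate 3. Gene levels are in RPKM, reads per kilobase of listed bins per 1000000 reads. The median gene had a mean of 20.9 RPKM. Of the 12801 genes, 12024 (93.9%) averaged at least 1 RPKM, 8646 (67.5%) at least 10, 1747 (13.6%) at least 100 and 59 at least 1000. These shares and the median, called those of all genes below, cover listed genes only. Unlisted bins are left out of a gene's length, so a gene with few of its bins listed may be overstated. Every listed bin had more than 10 reads in at least 2 of the 3 control libraries. A gene without a row is therefore named only as such, and the absence of a row is no measure of expression: the glycolytic gene Gapdh, on in nearly all cells, had none here. As a check for a library deposited more than once, the chi-square per degree of freedom over genes was 431 between replicates 1 and 2, 119 between 1 and 3 and 188 between 2 and 3. It takes reads as independent and covers counting error only, and it shows no more than that no library is a copy of another.

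Prolactin was the leading transcript. Prl had 22006 RPKM in replicate 1, 62170 in replicate 2 and 41835 in replicate 3, a mean of 42003 ± 20083, and ranked first in each library. Replicate 2 was the highest and replicate 1 the lowest, 2.83-fold apart, and the whole range lay above every other gene. Its 678 listed bases, in all 5 of its annotated bins, span 39814379 to 39824116 on the minus strand of chromosome 17 (ENSRNOG00000017374). Prl took 1.49% of reads in replicate 1, 4.22% in replicate 2 and 2.84% in replicate 3, a mean of 2.85% ± 1.36. The 95% Wilson interval was 1.490% to 1.494% in replicate 1, 4.211% to 4.219% in replicate 2 and 2.833% to 2.840% in replicate 3. Such intervals cover counting error only, since reads without molecular identifiers are not independent molecules. The spread between libraries was far wider than these intervals. In a bulk library, fewer cells of a type and less RNA per cell cannot be told apart.

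All 5 Prl bins stood in the same order of libraries, with replicate 2 highest and replicate 1 lowest. The first exon bin, of 28 bases, had 49225, 141013 and 88330 RPKM in replicates 1, 2 and 3. The other 4 bins lay between 18881 and 68734. Short bins were high across the table: over genes with at least 5 listed bins, bins of 20 and under 45 bases had a median of 1.70 times their gene's level, and bins of 1000 bases or more a median of 0.814 times.

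Below Prl the profile was headed by mitochondrial transcripts, signalling and cytoskeletal genes and the secretory pathway. Of the 30 genes with the highest means, 8 were mitochondrially encoded, 2 encoded cytosolic ribosomal proteins and 1 had only a clone name. Mt-co1, a subunit of cytochrome oxidase, came second with 6613, 6038 and 7057 RPKM in replicates 1, 2 and 3. Gnas, which encodes the stimulatory G protein alpha subunit that couples receptors to adenylyl cyclase, followed with 5255, 6927 and 5818. Of the Gnas bin values 43.6% were not whole reads, so part of its reads had been divided with another feature. Gnal, its close paralog, had 2134, 2863 and 2219 RPKM, in only 2 of its 15 bins. All values of these Gnal bins were whole reads. Whether reads of Gnas were assigned to them was not tested, so the Gnal level is uncertain.

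Other leading genes were Chgb, chromogranin B, with 2773 ± 360 RPKM, the cytoskeletal actin Actb with 2569 ± 810, the surface glycoprotein Thy1 with 2264 ± 380 and the galectin Lgals1 with 2219 ± 157. The neuroendocrine ubiquitin hydrolase Uchl1 had 2208 ± 196, the surface glycoprotein Bsg 2154 ± 618, the class I light chain B2m 2107 ± 461 and Cd24 2080 ± 175. Sostdc1, a secreted antagonist of BMP and Wnt signals, had 1916 ± 412. The ER chaperone Calr had 1912 ± 246, the lysosomal protease Ctsl 1846 ± 129, the disulfide isomerase P4hb 1768 ± 449, the redox protein Txn1 1750 ± 299, the annexin Anxa1 1705 ± 514 and Scg2, secretogranin II, 1674 ± 442. The cyclophilin-like Ppial4d had 1750 ± 271, on a single bin, and cyclophilin copies share sequence, so its level is uncertain. The order among these genes was loose. Within the first 30 the range of 3 libraries failed to overlap that of the next gene only after Prl, Mt-atp6 and Mt-co3. Rplp1, at 2440 ± 309, rested on 72 bases in 1 of 3 bins, and Rpl41, at 1992 ± 24.4, on 63 bases.

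**Figure D1:**
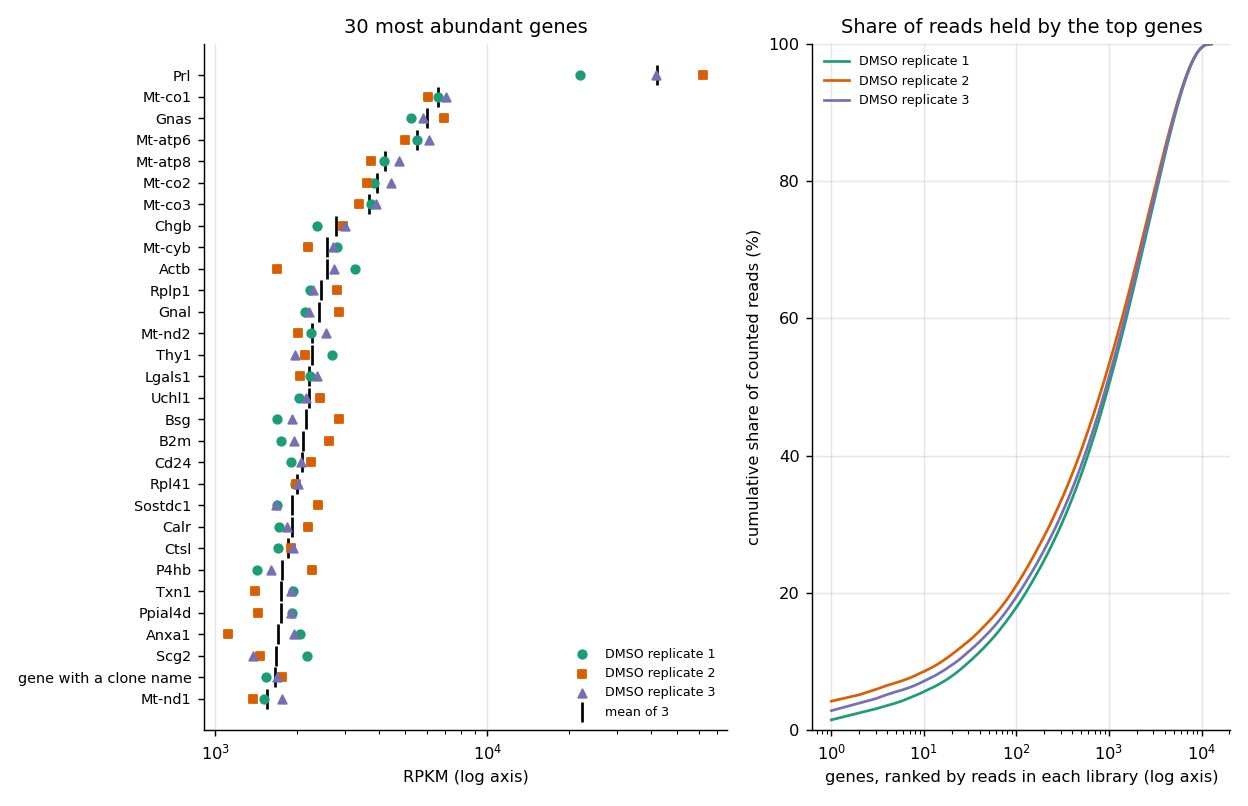
Left, RPKM (log axis) of the 30 genes with the highest mean, 1 point per control library and a bar for the mean of 3. Right, cumulative percentage of counted reads against gene rank (log axis) in each library: Prl stands apart in all 3 libraries, and the 50 most abundant genes hold 14.2% ± 1.53 of reads.

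Reads were spread over many genes. The 10 most abundant genes by reads held 5.60%, 8.54% and 7.13% of reads in replicates 1, 2 and 3, and the 500 most abundant 38.8% ± 1.80. It took 984, 846 and 931 genes to reach 50% of reads in replicates 1, 2 and 3. Replicate 2 was the most concentrated, and Prl alone made up most of the gap to replicate 1 at 10 genes. The 13 mitochondrially encoded genes took 3%, 2.65% and 3.22% of reads, and 78 cytosolic ribosomal protein genes 0.976%, 1.10% and 1.06%. Of these 78 genes, 66 (84.6%, against 67.5% of all genes) averaged at least 10 RPKM, and the lowest averaged 0.855. The ribosomal share counts listed bins only. Whether reads of these genes went to close copies or unlisted bins was not tested, so the share is uncertain. Replicate 2 had the lowest mitochondrial share and the highest share of Prl.

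Among the 3 pituitary hormone genes with a row, of 7 symbols, Prl stood alone at high level. Cga, the common alpha subunit of the glycoprotein hormones, had 28.3, 23.8 and 25.2 RPKM in replicates 1, 2 and 3, close to the median gene, on 2 of its 3 bins. Pomc, the precursor of corticotropin and melanotropins, had 2.29, 0.934 and 2.62 RPKM, from 124, 44 and 138 reads in 1 of its 2 bins. The Cga values lay within 1.19-fold of each other, while Pomc was lowest in replicate 2, where Prl was highest. The Prl mean was more than 1000 times that of either. Gh1, Tshb, Lhb and Fshb, which encode growth hormone and the beta subunits of thyrotropin, luteinising hormone and follitropin, had no row here.

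All 6 lactotroph markers had rows and all averaged over 100 RPKM, against 13.6% of all genes. Prl, Pou1f1, Chgb and Scg2 were given as markers from the start, so this count is no independent evidence of cell type. Chgb and Scg2 are granins of peptide-secreting cells in general and are counted again among granule cargo below. Beside Prl, Chgb and Scg2, Pou1f1 had 714, 584 and 710 RPKM in replicates 1, 2 and 3, on chromosome 11 from 2645981 to 2661212 (ENSRNOG00000000715). Pou1f1 was lowest in replicate 2, the library with the most Prl, and its range was narrow, with 1.22-fold between highest and lowest. The D2 dopamine receptor gene Drd2 had 166, 197 and 165 RPKM, and the oestrogen receptor gene Esr1 93.7, 133 and 95. Both were highest in replicate 2, and replicates 1 and 3 nearly coincided.

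The lineage transcription factors were led by homeodomain genes of pituitary development. Of 57 symbols in the list 33 had a row, and 18 of these (54.5%, against 67.5% of all genes) averaged at least 10 RPKM. The list median was 14.6 against 20.9 over all genes. After Pou1f1 came Six6, a homeodomain factor of early pituitary and eye, with 522, 538 and 531 RPKM. Lhx3, needed for most anterior pituitary lineages, had 183, 263 and 218. Six6 differed between libraries by 1.03-fold, while Lhx3 was at its highest in replicate 2 and its lowest in replicate 1.

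Further down the list were neuroendocrine and ETS factors. Neurod4, a proneural factor of the pituitary, had 61, 93.9 and 77.1 RPKM. The ETS factors Etv1 and Etv4 had 68.8 ± 15.2 and 63.5 ± 18.7, and Pitx1, a homeodomain factor of the anterior pituitary, had 34.3 ± 5.41. Neurod4 was highest in replicate 2, and Etv1 and Etv4 were lowest there. Tbx19, Nr5a1 and Pax7, factors of other pituitary lineages, were low and rested on 1 of 4, 4 of 6 and 2 of 9 bins. Tbx19, the corticotroph factor, had 0.879, 0.459 and 1.11 RPKM from 22, 10 and 27 reads, Nr5a1, the gonadotroph factor SF-1, 0.763, 2.1 and 1.12, and Pax7, of melanotrophs, 1.68, 5 and 3.29. Hesx1, Isl1, Gata2, Foxl2, Sox2, Sox9 and Neurod1 had no row here.

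**Figure D2:**
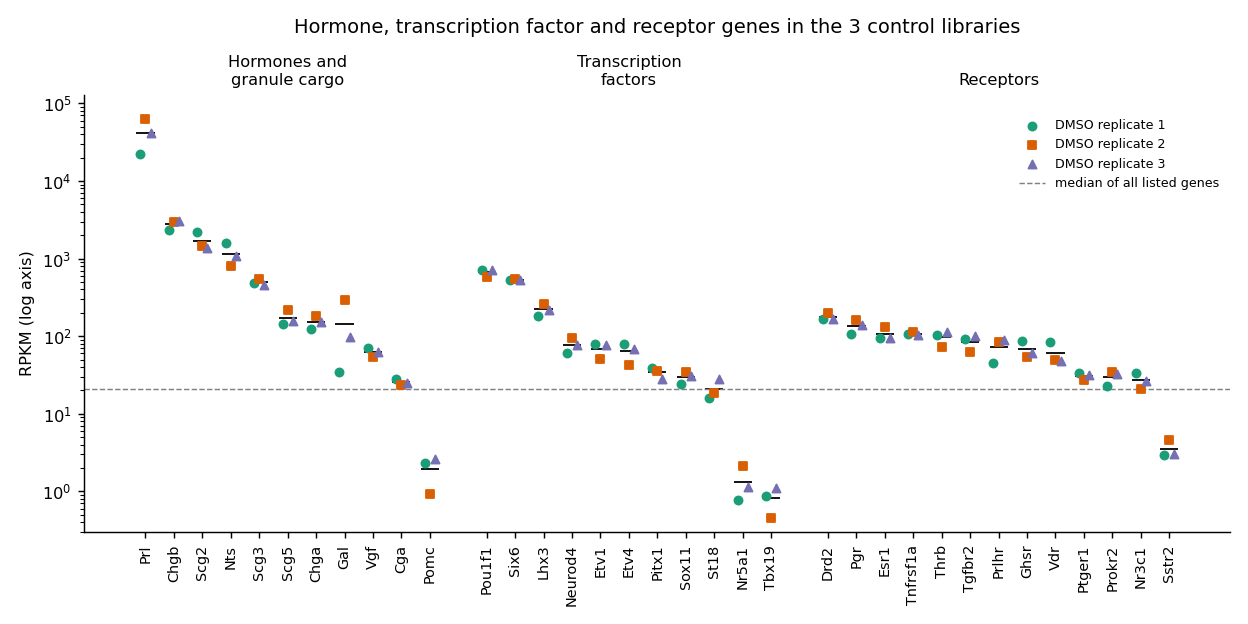
RPKM (log axis) of hormone, granule cargo, transcription factor and receptor genes in the 3 control libraries, 1 point per library, a bar for the mean and a dashed line at the median of all genes, 20.9 RPKM. Prl lies above the rest, Gal shows the widest spread of the genes drawn, and Pomc, Nr5a1, Tbx19 and Sstr2 lie below the median line in every library.

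Activity-regulated genes lay around the level of genes at large. Of 27 immediate early genes 22 had a row and 15 of these (68.2%, against 67.5% of all genes) averaged at least 10 RPKM. Jund had 148, 214 and 164 RPKM, the phosphatase gene Dusp1 99.7, 205 and 147, and Arc, a synaptic immediate early gene, 98.2, 110 and 98.4. Myc followed with 68.1 ± 3.87 and Junb with 60.8 ± 12.2. The classic stimulus-induced genes Fos and Egr1 were below the median gene, with 7.29, 6.02 and 7.31 RPKM for Fos and 1.99, 3.3 and 1.69 for Egr1. Fosl2, at 104 ± 9.58, rested on 7 of 16 bins, with 47.6% of its values not whole reads.

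The nuclear receptors were led by those for sex steroids, retinoids and thyroid hormone. Of 37 symbols 30 had a row and 21 of these (70%, against 67.5% of all genes) averaged at least 10 RPKM. The list median was 21.8, against 20.9 over all genes. The progesterone receptor gene Pgr, a known oestrogen target, had 106, 160 and 139 RPKM, above Esr1 in each library. The retinoic acid receptor gene Rarg had 100, 103 and 101, nearly equal between libraries. The thyroid hormone receptor gene Thrb had 103, 73.2 and 112 RPKM, and the vitamin D receptor gene Vdr 84.4, 49.8 and 47.4. Replicate 2 was lowest for Thrb, and replicate 1 stood above the others for Vdr. The glucocorticoid receptor gene Nr3c1 had 33.3, 21.1 and 26.3 RPKM. Esr2 had no row here.

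Receptors for hypothalamic factors, peptides and transmitters were mostly low, with a few exceptions. Of 82 symbols 31 had a row and 8 of these (25.8%, against 67.5% of all genes) averaged at least 10 RPKM. The list median was 2.99. Drd2 led the list. Prlhr, the receptor for prolactin-releasing peptide, had 45.4, 85.3 and 88.5 RPKM, and Ghsr, the ghrelin receptor, 87.1, 54.2 and 61.5. The prostaglandin E receptor gene Ptger1 had 33.8, 27.3 and 31.2, and the prokineticin receptor gene Prokr2 22.5, 35 and 32.4. Prlhr and Prokr2 were lowest in replicate 1 and Ghsr was highest there. Lower still were the endothelin receptor gene Ednra with 18.2 ± 3.92 RPKM and the GABA-B subunit gene Gabbr1 with 15.8 ± 2.41.

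Calcrl, the calcitonin receptor-like receptor, varied most among these receptors at 10 RPKM or more, with 29.9, 4.99 and 10.4 RPKM in replicates 1, 2 and 3. The somatostatin receptor genes Sstr2 and Sstr3 had 2.94, 4.54 and 3.03 RPKM and 1.5, 5.11 and 2.34 RPKM. The receptors for thyrotropin-releasing hormone (Trhr), vasoactive intestinal peptide (Vipr1, Vipr2), growth hormone-releasing hormone (Ghrhr), gonadotropin-releasing hormone (Gnrhr), corticotropin-releasing hormone (Crhr1) and galanin (Galr1, Galr2) had no row here.

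Growth factor and cytokine receptors varied between libraries about as much as genes at large. Of 61 symbols 36 had a row, and 19 of these (52.8%, against 67.5% of all genes) averaged at least 10 RPKM. The median ratio of highest to lowest library was 1.25, against 1.27 over all genes. The TNF receptor gene Tnfrsf1a had 107, 113 and 104 RPKM, the TGF-beta receptor gene Tgfbr2 91.2, 62.5 and 101, and the Wnt receptor gene Fzd6 82.6, 72.9 and 79.3. The FGF receptor gene Fgfr2 had 57.2, 48.4 and 58.9, and the IGF-1 receptor gene Igf1r 29, 25.7 and 27.8. Tgfbr2 was the widest of these, low in replicate 2. The EGF and insulin receptor genes were low, with 3.03, 6.36 and 4.35 RPKM for Egfr and 0.938, 1.35 and 0.703 for Insr, and the prolactin receptor gene Prlr had no row here.

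G protein genes other than Gnas were also high. Of 46 symbols of G proteins and cyclic AMP signalling 39 had a row. Of these, 33 (84.6%, against 67.5% of all genes) averaged at least 10 RPKM. Gnai2, an inhibitory alpha subunit, had 404, 293 and 356 RPKM, the beta subunit gene Gnb2 377, 353 and 372, and the protein kinase A regulatory subunit gene Prkar1a 373, 302 and 349. Rgs16, which shortens G protein signals, had 90.5, 300 and 161 RPKM, 3.31-fold from lowest to highest, with replicate 2 on top. The ion channel list was lower, with 16 of 39 members with a row (41%) at 10 RPKM or more and a median of 8.88. Cacnb3, the beta-3 subunit of voltage-gated calcium channels, had 178, 161 and 173 RPKM and the potassium channel gene Kcnk1 116, 147 and 120. The low-voltage calcium channel gene Cacna1g had 19, 37.3 and 16.6 RPKM, and Hcn2, a pacemaker channel, 22.6, 22.3 and 22.9. The L-type channel gene Cacna1c and the big-conductance potassium channel gene Kcnma1 had no row here.

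The secretory route was high throughout its early steps. All 21 genes with a row in the list of ER translocation and signal peptide cleavage, all 32 of ER folding and glycosylation and all 39 of ER to Golgi transport averaged at least 10 RPKM, against 67.5% of all genes. Their medians were 174, 215 and 176 RPKM, against 20.9 over all genes. Of the 32 folding genes 24 (75%, against 13.6% of all genes) averaged at least 100 RPKM. These counts cover the 21 of 26, 32 of 34 and 39 of 44 symbols that had a row. Symbols were counted as written, and Ero1l, without a row, is an older name of Ero1a, which had one.

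At translocation, the translocon-associated Ssr2 had 722, 886 and 806 RPKM and the channel subunit gene Sec61b 540, 700 and 653. Among the folding genes Calr, a lectin chaperone, had 1712, 2187 and 1838, P4hb 1420, 2274 and 1609, and Hspa5, the ER chaperone BiP, 1109, 1720 and 1292. Each was lowest in replicate 1 and highest in replicate 2. The isomerase gene Pdia3 had 1336 ± 155, and the chaperone gene Hsp90b1 920 ± 124. At the ER to Golgi step, the cargo receptor genes Tmed9 and Lman2 had 762 ± 66.5 and 590 ± 47.6 RPKM and the coat subunit gene Copz1 549 ± 32.1.

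Prohormone processing genes were moderate. Of 17 symbols 16 had a row, with a median of 37.5 RPKM. Carboxypeptidase E, which trims basic residues from processed hormones, had 252, 282 and 239 RPKM (gene Cpe), and Pam, the amidating enzyme, 123, 135 and 103. The prohormone convertases Pcsk2 and Pcsk1 had 41.8, 47.4 and 41.3 and 30.2, 38.2 and 26.4, the latter on 2 of its 14 bins. Furin, the convertase of the Golgi, had 61.6, 55.7 and 54.8. Ctsl was the highest of the list, with 1699, 1900 and 1940 RPKM.

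Granule cargo ranged from some of the most abundant transcripts to genes well below the median. Of 38 symbols 18 had a row, with a median of 119 RPKM. Of these, 12 (66.7%, against 67.5% of all genes) averaged at least 10 RPKM and 9 (50%, against 13.6%) at least 100. Chgb had 2359, 2950 and 3010 RPKM, and Scg2 2183, 1463 and 1378. Replicate 1 was the lowest library for Chgb and the highest for Scg2. Neurotensin, a neuropeptide, had 1593, 790 and 1079 (gene Nts), ranking 50th of all genes. Secretogranin III, a granin that helps sort cargo into granules, had 488, 538 and 451 (gene Scg3), Scg5, the chaperone of convertase 2, 142, 219 and 154, Chga, chromogranin A, 125, 184 and 152, and Vgf 70.9, 53.5 and 63.3.

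Gal, the neuropeptide galanin, was the least even of the abundant cargo genes. It had 34.6 RPKM in replicate 1, 296 in replicate 2 and 96.5 in replicate 3, from 1215, 9059 and 3302 reads over all 5 bins (chromosome 1, 218653242 to 218657579). The libraries stood in the same order as for Prl and were 8.57-fold apart. Sst, somatostatin, had 8.18, 7.38 and 4.25 RPKM and Gnrh1 3.09, 1.76 and 2.72, all below the median gene.

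The release machinery was expressed around the median gene, with high vesicle membrane proteins. Of 73 symbols 59 had a row, and 41 of these (69.5%, against 67.5% of all genes) averaged at least 10 RPKM. The median was 26.3. Synaptophysin, a vesicle membrane protein, had 424, 575 and 533 RPKM (gene Syp), and the granule membrane phosphatase-like protein IA-2 397, 414 and 368 (gene Ptprn). Of the SNARE proteins that drive fusion, Vamp8 had 243, 230 and 265, Vamp2 216, 186 and 178 and Snap25 78.3, 70.1 and 69.1. Napa and Nsf, which recycle SNARE complexes, had 184 ± 6.81 and 126 ± 9.37. Among the calcium sensors of release, Syt4 had 96.6, 151 and 106 and Syt1 26.9, 23.2 and 28.7. The spread between libraries was like that of genes at large, with a median ratio of highest to lowest of 1.28 against 1.27 over all genes, and 8 of 59 members (13.6%, against 10.3% of all genes) at least 2-fold apart.

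**Figure D3:**
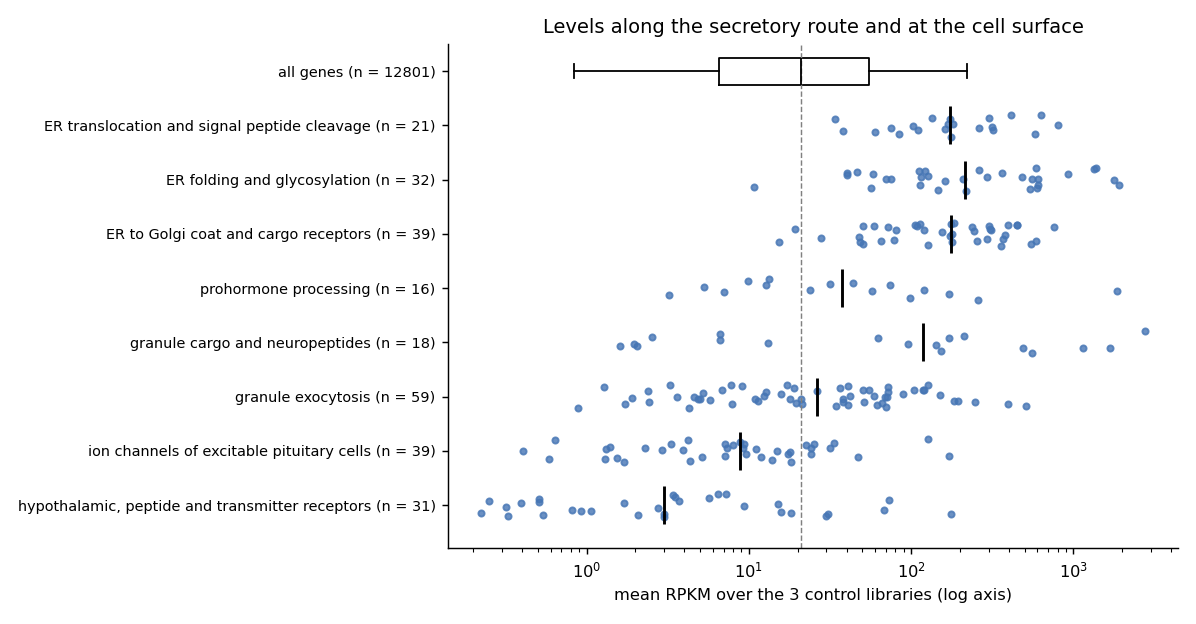
Mean RPKM over the 3 control libraries (log axis) of the members with a row, 1 point per gene and a bar at the list median, for steps of the secretory route, ion channels and receptors. The box shows all 12801 genes (quartiles, whiskers at percentiles 5 and 95) and the dashed line their median of 20.9; the 3 early ER and Golgi lists lie mostly to its right, and the peptide and transmitter receptors mostly to its left.

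Markers of other cell types were mixed. The somatotroph list (0 of 2 symbols) and the endothelial list (0 of 8) had no row here, and of 5 stem and folliculostellate markers only Aldoc had one, also a glycolytic gene, with 31.5, 105 and 63.2 RPKM. Of 5 epithelial markers 4 had a row. Krt8, a keratin of simple epithelia, had 616, 655 and 698 RPKM, and the adhesion gene Epcam 126, 124 and 129, while Krt18, the partner of Krt8, varied more, with 47.3, 117 and 87.4. With the median bin as the gene's value the mean of Krt8 was 418 in place of 656 RPKM and that of Krt18 46 in place of 83.8. Of 8 fibroblast markers 4 had a row, with summed levels of 3833, 3306 and 3065 RPKM. Thy1 had 2690, 2140 and 1960 and the matrix proteoglycan Dcn 1070, 1108 and 1067, while Lum had 70.2, 56.9 and 36.5 and Pdgfrb 2.39, 1.39 and 0.878. The collagen genes Col1a1, Col1a2 and Col3a1 had no row here. Thy1 is also a surface protein of neurons.

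Of 8 leukocyte markers 3 had a row, with Cd74, the class II invariant chain, at 14.2, 27.3 and 16 RPKM, Cd68 at 1.9, 3 and 2.54 and Itgax at 2.1, 0.955 and 1.3. Ptprc, the general leukocyte antigen, had no row here. Of 9 neuronal and glial markers 7 had a row. The vesicular glutamate transporter gene Slc17a6 had 280, 216 and 308 RPKM, the neuronal tubulin Tubb3 161, 133 and 164 and Gad1, which makes GABA, 23.3, 12.5 and 33.4. Of the 7 genes 5 were lowest in replicate 2 (against 46.2% of all genes), these 3 among them. Slc17a7 and Mbp, with 1.2, 1.86 and 2.19 RPKM and 0.515, 2.02 and 1.08, were lowest in replicate 1. With the median bin Tubb3 averaged 229 in place of 153 RPKM. Of 7 erythroid markers 2 had a row, the alpha-globin genes Hba-a3 with 56.9, 279 and 118 RPKM and Hba-a2 with 16.7, 40.7 and 37.5. These are near-identical copies, so the division between them is uncertain.

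Metabolic lists were also examined. All 26 symbols of sterol synthesis had a row and 24 (92.3%, against 67.5% of all genes) averaged at least 10 RPKM. Srebf1, a master regulator of lipid synthesis, had 76.5, 277 and 109 RPKM, highest in replicate 2. The synthesis enzymes were more even, with Sqle at 119 ± 7.71 and Fdft1 at 102 ± 6.84. Of 21 glycolytic genes 17 had a row, with a median of 141 RPKM. The isomerase gene Gpi had 831, 1382 and 1152, and Aldoa 502, 792 and 598, with most of its values not whole reads (58.3%). Replicate 1 was the lowest library for 14 of the 17, against 32.2% of all genes.

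The 3 control libraries were not equally alike. Spread was measured on log2(RPKM + 0.1) over the 12455 genes with a mean of at least 0.5 RPKM, and the median gene had an SD of 0.18 and a highest library 1.27-fold over the lowest. Replicates 1 and 3 were the closest pair, with 278 genes at least 2-fold apart. Replicates 2 and 3 had 581 and replicates 1 and 2 had 1070. Replicate 3 was the middle library for 7361 genes (59.1%). In all, 1277 genes (10.3%) had a highest library at least 2-fold over the lowest. That count was 271 without replicate 2, 570 without replicate 1 and 1068 without replicate 3. The share fell with level, from 31.1% of genes with a mean of 0.5 to 1 RPKM to 6.71% of those at 10 to 100 and 4.62% of those at 100 to 1000.

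Replicate 2 stood apart most often. It was at least 2-fold below both other libraries for 332 genes (2.67%) and at least 2-fold above both for 102 (0.819%). For replicate 1 these counts were 101 below (0.811%) and 60 above (0.482%), and for replicate 3 they were 44 (0.353%) and 13 (0.104%). A gene has to clear both other libraries to be counted, so leaving one out raised the counts for replicate 2. The count above both was 50 at a mean of at least 5 RPKM and also 50 with a pseudocount of 1. Below, it had 386 genes without replicate 1 and 624 without replicate 3, and above, 184 and 444. Replicate 2 also had the fewest reads, the highest Prl share and the lowest mitochondrial share of the 3 libraries. With Prl and mitochondrial reads left out of the total, 322 genes were at least 2-fold below both other libraries in replicate 2 and 108 above both. Apart from that rescaling, the part of these traits in the distance of replicate 2 from the others was not tested.

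Genes of cell division made up the plainest block. This list and those that follow were chosen with earlier results of these data known, so their counts are a description only. Of 36 symbols of G2/M and mitosis 35 had a row and passed the filter. All 35 were lowest in replicate 2 (against 46.2% of all genes) and highest in replicate 1 (against 44.4%), and 34 (against 2.67%) were at least 2-fold below both other libraries there. The list median relative to each gene's mean was 0.74 in replicate 1, -1.08 in replicate 2 and 0.33 in replicate 3 (log2), against 0.03, -0.03 and 0.00 over all genes. Cdk1, the mitotic kinase, had 270, 76.4 and 206 RPKM, Pttg1, the securin known from pituitary tumours, 161, 63.3 and 156, and Top2a, the topoisomerase of dividing cells, 176, 42.7 and 124. The mitotic genes Cdc20 and Kif20a had 168, 49.8 and 125 and 166, 37.7 and 111. Replicate 2 did not overlap the other libraries for any of these genes.

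The list of G1/S and DNA replication followed. Of its 43 symbols 42 had a row and passed the filter. Of these, 41 were lowest in replicate 2 (against 46.2% of all genes) and 27 (against 2.67%) were at least 2-fold below both other libraries. The list median was 0.64, -0.89 and 0.21 in replicates 1, 2 and 3. The replication clamp gene Pcna had 337, 110 and 250 RPKM, and the helicase genes Mcm6 and Mcm3 297, 122 and 253 and 147, 29.6 and 103. The single exception was Ccnd1, cyclin D1, which had 286, 318 and 266 RPKM and was highest in replicate 2.

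Genes of the integrated stress response, which answers amino acid shortage and ER stress through ATF4, leaned the other way. Of 33 symbols 27 had a row and passed the filter. Of these, 24 were highest in replicate 2 (against 36.3% of all genes) and 7 (against 0.819%) were at least 2-fold above both other libraries. The list median was -0.28, 0.39 and -0.12 in replicates 1, 2 and 3. Atf4 had 450, 709 and 500 RPKM, its target Ddit3 (CHOP) 166, 344 and 190, and Ddit4 120, 284 and 177. The pseudokinase Trib3 had 13.2, 81.7 and 20.4 and the hormone Fgf21 3.07, 61.5 and 9.18. Slc38a2, an amino acid transporter of the same list, did not share the pattern, with 444, 385 and 459. The ER folding genes leaned less far. Of these, 27 of 32 were highest in replicate 2 (against 36.3% of all genes), where their median was 0.19, and none was at least 2-fold above both others. Among folding genes the widest were Ero1a, the ER oxidase, with 63.3, 184 and 98.9 RPKM and Herpud1, of ER-associated degradation, with 95.6, 213 and 131.

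**Figure D4:**
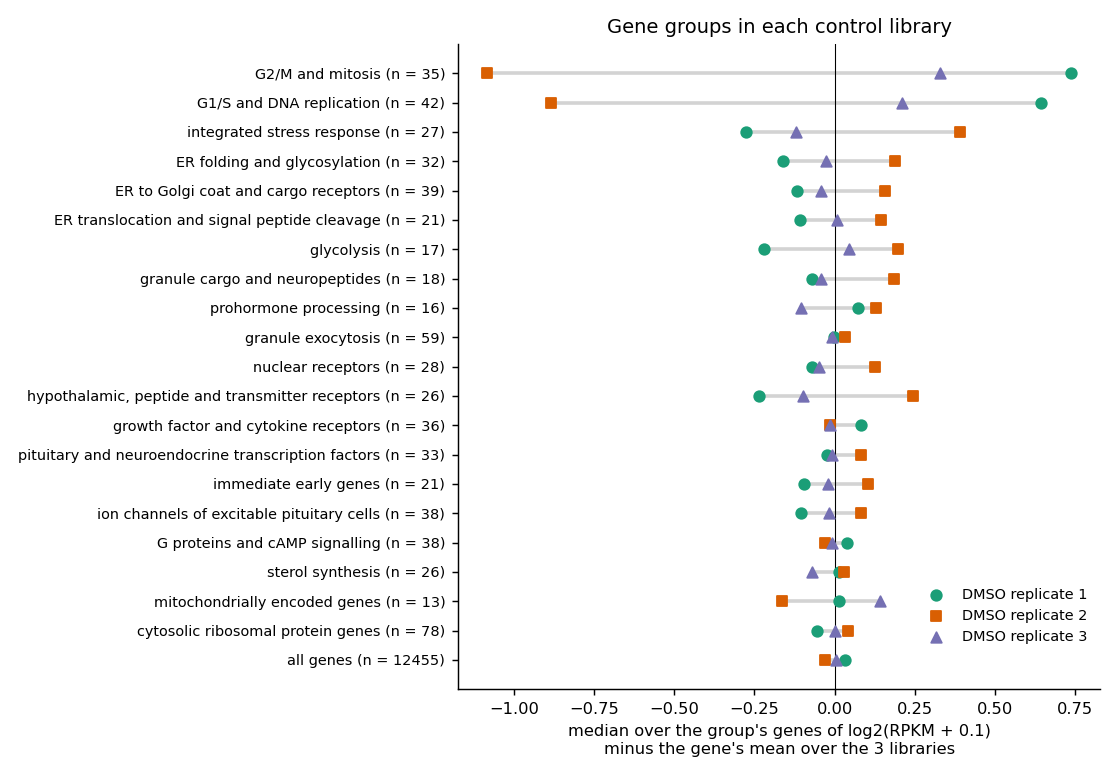
Median over each group's genes past the filter of log2(RPKM + 0.1) minus the gene's mean over the 3 libraries, 1 point per control library. The G2/M and G1/S groups reach -1.08 and -0.89 in replicate 2 and the integrated stress response 0.39, while granule exocytosis, ribosomal protein genes and all genes stay near 0 in every library.

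**Figure D5:**
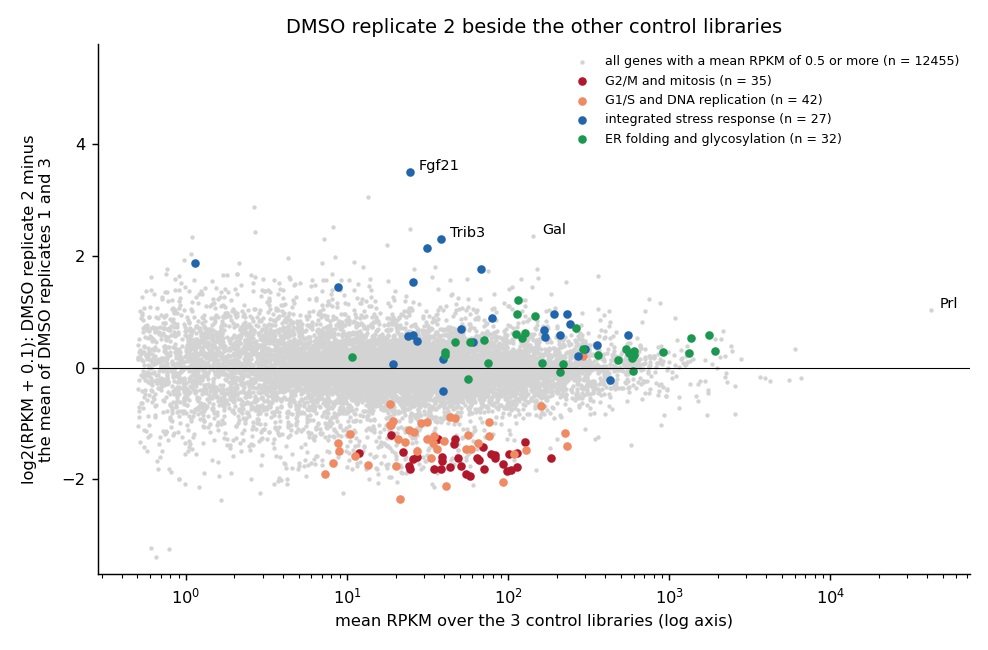
Difference of log2(RPKM + 0.1) between replicate 2 and the mean of replicates 1 and 3 against mean RPKM (log axis), 1 point per gene, for all 12455 genes past the filter (grey) and 4 gene groups (colours). The G2/M genes and all G1/S genes but Ccnd1 lie below 0, most integrated stress response and ER folding genes above, with Fgf21, Trib3, Gal and Prl labelled.

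Among genes with a mean of at least 10 RPKM, the widest spreads were those of Cd69 (25.1-fold, 1 of 5 bins and only 22 reads in replicate 1), Fgf21 (20-fold), the kallikrein gene Klk1 (9.42-fold, 4 of 16 bins of a family of close copies), Gal (8.57-fold) and the G protein regulator Rgs5 (7.65-fold, 1 bin). Chac1, a stress gene that degrades glutathione, had 10.2, 63.7 and 20.1 RPKM, and Pgf, placental growth factor, 6.24, 36.7 and 10. All of these were highest in replicate 2. In the other direction, the replication licensing gene Cdc6 had 34.4, 5.57 and 24.2, Spc25 of the kinetochore 55, 10.4 and 38.5 and Cip2a 25.4, 4.83 and 16.8. A few wide genes followed other libraries. The nicotinic receptor subunit gene Chrna6 had 38.2, 7.03 and 7.58 RPKM, high in replicate 1 alone, and Enpp2, the lysophospholipid enzyme autotaxin, 241, 376 and 70, low in replicate 3 alone. Cox4i2, a hypoxia-linked cytochrome oxidase subunit, had 39.4, 204 and 116, lowest in replicate 1 and highest in replicate 2.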

How the data were processed

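Polyadenylated RNA of RC-4B/C cells was measured in 3 DMSO libraries. The authors deposited log2 RPKM per exon bin, and the values show a constant of 0.00292 reads per 1000000 added before the log. Trim Galore 0.4.1, cutadapt 1.14, TopHat2 2.1.0, Bowtie2, edgeR 3.26.8 and build Rnor_6.0 are named, with no role, per the submitters' processing notes. How reads were counted, whether strand was used and which annotation release served are not given in the labels or the file header, so reads of overlapping antisense genes cannot be told apart.

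The log was undone, the constant removed, and bins summed to reads per kilobase of listed bins per 1000000 reads (Python 3.11.15, pandas 2.3.3). Between 95.9% and 96.4% of values per library were whole reads within 0.02 read. All bins were listed for 7525 genes (58.8%), and 75.0% of genes had a listed length divisible by 3, so levels rest largely on coding length. For a symbol on more than 1 identifier (29 symbols) the highest was used. The calculation was tested on simulated data built with the same kind of added constant. That checks the arithmetic and not how reads were assigned to bins.

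Named genes are the hormones, the 30 highest means, up to 8 members of each of 31 lists by mean, members needed as low or without a row, and the 15 widest spreads overall and in replicate 2. Pitx1, Nr3c1, Hcn2, Pcsk1, Snap25, Syt1, Syt4, Vgf, Ddit4, Ero1a and Herpud1 lie outside that rule and were added after their values were seen. Members and lists were chosen with earlier results of these data known. Of 810 list symbols 581 had a row. Some genes that the rule takes are left out here. Alternatives covered how a gene value is made, scaling, filter, pseudocount and each library left out.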

Additional observations from a re-analysis of the deposited data

How the results depend on the processing

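Other ways of making a gene value (the median bin, the constant kept, bins with divided reads left out), other scalings, TPM, filters and pseudocounts gave 100 values with all 3 libraries, and 96 stayed within the replicate spread or within 1.5 times the count given above. The exceptions were counts of spread. The bound was wide for Prl, whose share of 2.85% had an SD of 1.36. Leaving out bins with divided reads could not change the Prl mean, since all Prl values were whole reads. Genes at least 2-fold apart numbered 730 at a mean of at least 5 RPKM and 828 with a pseudocount of 1, and those at least 2-fold higher in replicate 2 numbered 50 in either case, because low genes dropped out or were damped. With 1 library left out, the first count ranged from 271 to 1068, that of genes lower in replicate 2 from 386 to 624 and that of genes higher in it from 184 to 444. The Prl mean ranged from 31920 to 52002 RPKM and its share from 2.16% to 3.53%, and 34 to 35 G2/M genes were lower in replicate 2. Median-of-ratios scaling shifted replicate 1 by -0.0305 and replicate 2 by 0.0311 (log2), and replicate 3 by less.

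With the median bin as the gene's value some levels moved, with Eno1 at 26.3 in place of 394 RPKM and Ldha at 94.9 in place of 219, beside the keratins and Tubb3 above. The cause was not tested. With 3 libraries of 1 group there is no test of a difference between them. Spread was wider for low genes, with a median SD of 0.38 (log2) at 0.5 to 1 RPKM, and a low gene with few listed bases rests on few reads (Tbx19 on 10 to 27 per library). No paired analysis was possible because no comparison between groups was made.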
